A study of Mus musculus with 2 samples.

Results

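The genes described here are 36 genes of the cell cycle whose transcripts are made mainly by dividing cells, 10 that act in DNA replication and 26 that act in mitosis. They were taken by gene name, as all non-control spots that carry a member's name on 2 two-colour Agilent arrays, which gave 55 spots per array and 46 of the 39429 probes. A gene was represented by its brightest probe, and 35 of the 36 members were among the 20989 features that passed a filter on dim probes. The exception was Aurkb, the kinase of the chromosomal passenger complex, whose probe was not well above background in any of the 4 channels. The filter asked for a signal well above background on both arrays in Rbpj-cKO or in control RNA, and requiring it in all 4 channels kept the same number of members, 35.

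The RNA came from ureters dissected from NMRI mouse embryos at embryonic day E18.5. Rbpj-cKO embryos were Tbx18(cre/+);Rbpj(fl/fl): their cre recombinase, driven by Tbx18 in ureteric mesenchyme, acts on floxed alleles of Rbpj, the DNA-binding partner of Notch receptors. Controls were Rbpj(fl/?), with the other allele not stated and no cre listed. Their Tbx18 genotype is not stated, so the groups may also differ by the cre-bearing Tbx18 allele. Each array set Rbpj-cKO against control RNA of the same sex: the male array carried Rbpj-cKO in red (AlexaFluor647), the female array in green (AlexaFluor555). Sex and dye orientation therefore cannot be told apart. How many embryos gave each RNA is not stated. The p-values rest on the spread between these 2 arrays, pooled largely over all features, and that spread may be technical. Rbpj had log2 ratios of Rbpj-cKO over control of -1.58 in the males and -0.93 in the females, a mean of -1.25 ± 0.46 (SD, n = 2; limma adjusted p = 0.076). Because whole ureters were used, a difference in the number of dividing cells and a difference in RNA per dividing cell cannot be told apart.

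A dividing cell copies its DNA in S phase and separates the copies in mitosis, and it makes the needed transcripts in successive waves. Replication genes are known targets of E2F transcription factors. Genes of mitosis are transcribed later, under the control of the DREAM and MuvB complexes at a cell cycle homology region (CHR) together with NF-Y at CCAAT boxes. In the fetal ureter, both the urothelium and the mesenchyme grow by cell division while smooth muscle forms.

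Promoter sequences of 6 members are shown because they carry the motifs by which both classes are usually told apart. They are RefSeq sequences of GRCm38.p6, 120 bases each, written 5′ to 3′ on the strand of the gene, with the matches named next, on either strand, in capitals. In Mcm5 (chr8:75109339-75109458, plus strand) and Mcm6 (chr1:128359706-128359825, minus strand), which encode subunits of the replicative helicase, capitals mark E2F-type matches and CCAAT boxes. In Cdc20 (chr4:118437344-118437463, minus strand), Prc1 (chr7:80294356-80294475, plus strand), Top2a (chr11:99024190-99024309, minus strand) and Mki67 (chr7:135716410-135716529, minus strand), capitals mark CHR matches and CCAAT boxes. The Mki67 stretch also holds an E2F-type match, TTGGCGC, left in lower case. Prc1 has 2 annotated starts, and the window of the downstream start is shown.
Mcm5: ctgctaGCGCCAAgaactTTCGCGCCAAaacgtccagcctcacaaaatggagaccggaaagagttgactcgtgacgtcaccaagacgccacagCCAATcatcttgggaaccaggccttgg
Mcm6: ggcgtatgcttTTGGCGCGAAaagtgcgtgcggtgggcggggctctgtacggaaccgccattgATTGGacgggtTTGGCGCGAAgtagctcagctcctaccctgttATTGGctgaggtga
Cdc20: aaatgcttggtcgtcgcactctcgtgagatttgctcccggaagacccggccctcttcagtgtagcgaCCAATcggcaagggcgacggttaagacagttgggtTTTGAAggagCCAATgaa
Prc1: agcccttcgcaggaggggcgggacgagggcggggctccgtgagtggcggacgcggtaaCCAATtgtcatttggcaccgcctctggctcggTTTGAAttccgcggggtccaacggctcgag
Top2a: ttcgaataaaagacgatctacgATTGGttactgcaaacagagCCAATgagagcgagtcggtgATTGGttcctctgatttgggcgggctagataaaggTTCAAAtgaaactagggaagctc
Mki67: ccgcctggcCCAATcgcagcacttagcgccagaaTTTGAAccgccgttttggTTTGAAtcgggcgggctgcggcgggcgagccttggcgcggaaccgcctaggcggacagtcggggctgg

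RefSeq windows of 300 bases (250 before the start, 50 after) were found for 31 of the 36 members, and none was matched for Aurkb, Ccna2, Kif20a, Mcm4 and Tpx2. An E2F-type match (TTCCCGC or TTGGCGC or TTCGCGC or TTGCCGC, either strand) was present in 6 of 9 replication members and in 4 of 22 mitotic members, against 9.57% of all 32851 windows. A CHR match (TTTGAA, either strand) was present in 16 of 22 mitotic members and in 1 of 9 replication members, against 17.9% of all windows. CCAAT, on either strand, was present in 19 of 22 mitotic and 7 of 9 replication members, against 37.4% of all windows. An E2F-type match read on the minus strand as GCGCCAA can share its last bases with a CCAAT box. On the ratios described next, mitotic members with a CHR match had a median log2 ratio of 0.16 and those without 0.20. Replication members with an E2F-type match had a median of 0.18 and the 3 without it 0.06. A match is a run of letters and not a measured binding site.

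None of the 35 members passed the limma test between Rbpj-cKO and control ureters, against 27 of 20989 features, or 0.129%. The lowest unadjusted p over the members was 0.0832, for Mki67, so 0 members had an unadjusted p under 0.05 (3.37% of features did), and every member had an adjusted p of 1. The direction of the small differences was nevertheless uneven. The mean log2 ratio was above 0 in 34 of 35 members, against 51.5% of features, with a median of 0.18, or 1.13-fold, against 0.01 over all features. Rbpj-cKO exceeded control on both arrays in 19 members, against 21.7% of features, and was below control on both in 0 members, against 19.7% of features. The count of 19 depended on loess normalization: with median centring in its place it was 10, against 22.4% of features. In 17 members both Rbpj-cKO channel levels lay above both control levels, against 14.9% of features. Transcripts of the same RNA samples are not independent, so their common direction is a description of 2 arrays and not 35 separate observations.

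**Figure D1:**
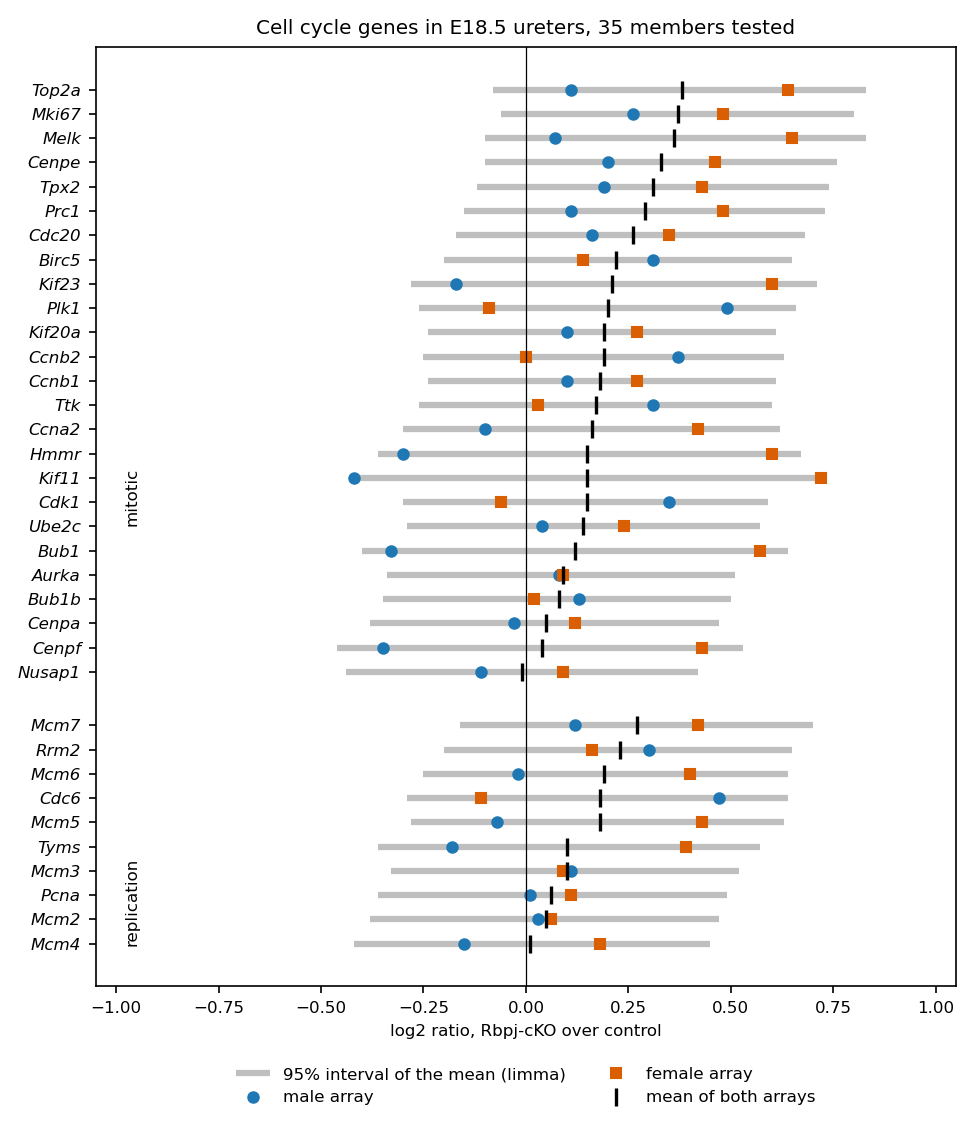
Log2 ratio of Rbpj-cKO over control (x axis) for the 35 members tested, mitotic members above and replication members below, ordered by their mean. Circles are the male array, squares the female array, black bars their mean and grey bars limma's 95% interval of the mean; every interval includes 0, and 34 of 35 means lie above it.

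The arrays limit this comparison to large differences. The smallest mean log2 ratio among called features was 1.22 in size, or 2.33-fold. The standard error of a member's mean was 0.19 to 0.26, and the 95% intervals ran from -0.46 to 0.83 over all members. These errors rest mostly on the variance pooled over all features and follow a gene's own spread only weakly. Aurka, with an SD of 0.01 between the arrays, had a standard error of 0.19, and Kif11, with an SD of 0.81, had 0.26. All 35 intervals included 0, 24 reached a 1.5-fold rise and 11 did not. No interval reached a 2-fold rise or a 1.5-fold fall. The scanner software's own error of a member's log2 ratio was 0.20 to 0.23 per array, similar in size to the median SD of 0.21 between the arrays.

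S phase and mitotic genes had medians close to each other. Median log2 ratios were 0.18 over 25 mitotic members and 0.14 over 10 replication members, a difference of 0.04. By array, mitotic members had medians of 0.10 (male) and 0.35 (female), and replication members 0.02 and 0.17 (the latter -0.09 with median centring in place of loess, as over all features), so the mitotic median was the higher by 0.08 and by 0.18, a mean over the arrays of 0.13 ± 0.07 (SD, n = 2). That order did not hold under every processing: on the male array it was 0.40 for mitotic against 0.44 for replication members with median centring, and on the female array 0.29 against 0.34 from the scanner's processed signals and from the deposited value table. Rbpj-cKO exceeded control on both arrays in 14 of 25 mitotic and 5 of 10 replication members. No test was made of this contrast. With loess the 6 highest means of all members belonged to mitotic genes: Top2a, Mki67, Melk, Cenpe, Tpx2 and Prc1. That ranking did not hold from the scanner's processed signals. There the replication genes Rrm2 (0.33) and Mcm7 (0.32) lay above Melk (0.31), Prc1 (0.31) and Tpx2 (0.27).

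**Figure D2:**
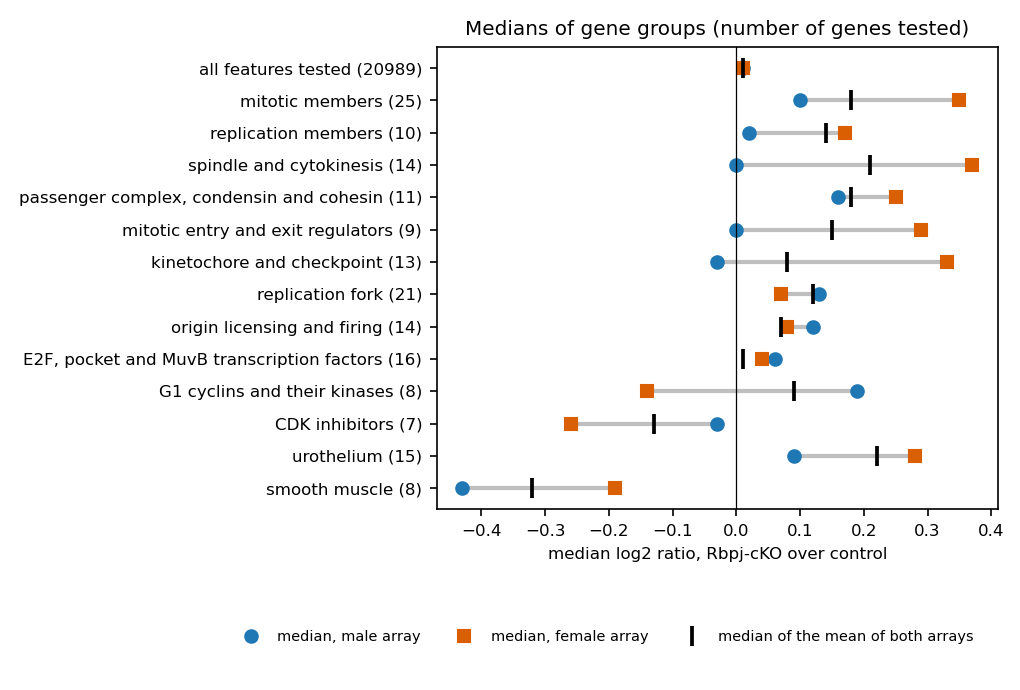
Median log2 ratio of Rbpj-cKO over control (x axis) for the mitotic and replication members, the subgroups of other cell cycle genes, urothelial and smooth muscle markers and all features, with the number of genes in brackets. Circles are the male array, squares the female array and bars the median of the mean of both; mitotic members (0.18) and replication members (0.14) lie close together.

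Among the replication genes, the helicase group covers the MCM subunits Mcm2 to Mcm7, which form the ring that unwinds DNA, and Cdc6, which loads that ring at origins. Its 7 genes had a median log2 ratio of 0.18, and 3 of 7 were higher on both arrays. Mcm7 had the highest mean, with log2 intensities of 15.93 in Rbpj-cKO and 15.81 in control RNA on the male array, and 16.06 and 15.64 on the female array. Its mean log2 ratio was 0.27 ± 0.21 (SD, n = 2), or 1.21-fold (adjusted p = 1), and both Rbpj-cKO levels lay above both control levels. Mcm4 had the lowest mean, 0.01 ± 0.23, with 15.43 against 15.58 in the males and 15.55 against 15.38 in the females, so its groups overlapped. The 6 subunits work as 1 complex, and differences among them were not tested. Mcm2 (0.03 and 0.06) and Mcm3 (0.11 and 0.09) had nearly the same log2 ratio on both arrays. Mcm5 (-0.07 and 0.43) and Mcm6 (-0.02 and 0.40), whose promoters are shown above, had a value above 0 on the female array alone. Cdc6 had 0.47 in the males and -0.11 in the females, while its second probe had -0.04 and 0.36, so its values by array depended on the probe.

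The remaining replication genes are Pcna, the sliding clamp of DNA polymerases, and Rrm2 and Tyms, which supply deoxynucleotides. Rrm2, the regulated subunit of ribonucleotide reductase, had log2 intensities of 15.36 (Rbpj-cKO) and 15.06 (control) in the males and 15.12 and 14.96 in the females. Its mean log2 ratio was 0.23 ± 0.10, and its groups did not overlap. Pcna was nearly level, at 16.34 against 16.32 and at 16.32 against 16.20, with a mean log2 ratio of 0.06 ± 0.07 that was -0.02 from the scanner's processed signals. Tyms, thymidylate synthase, had ratios of -0.18 in the males and 0.39 in the females.

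Mki67 and Top2a are the members most often used to mark dividing cells: Mki67 encodes a protein that coats mitotic chromosomes, and Top2a the topoisomerase that untangles sister DNA. Mki67 had log2 intensities of 16.19 in Rbpj-cKO and 15.94 in control RNA on the male array and 16.42 and 15.94 on the female array. Its mean log2 ratio was 0.37 ± 0.16 (SD, n = 2), or 1.29-fold, with a 95% interval of -0.06 to 0.80. Top2a had levels of 14.10 and 13.99 in the males and 14.30 and 13.66 in the females, a mean log2 ratio of 0.38 ± 0.38, or 1.30-fold, with an interval of -0.08 to 0.83. In both genes the Rbpj-cKO levels lay above the control levels on both arrays without overlap, and in both the female array gave the larger ratio. A second Mki67 probe had ratios of 0.00 and 0.60, so only the female array showed a difference with that probe. Neither gene passed the test (limma adjusted p = 1).

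The mitotic cyclins and their kinase start mitosis: Ccna2, Ccnb1 and Ccnb2 are the regulatory subunits, and Cdk1 is the kinase they activate. This group had a narrow range of mean log2 ratios, 0.15 for Cdk1 to 0.19 for Ccnb2, and only Ccnb1 (0.10 and 0.27) was higher on both arrays. Ccnb2 had levels of 15.13 in Rbpj-cKO and 14.76 in control RNA in the males, and of 14.81 in both channels in the females. Cdk1 had 13.29 against 12.94 in the males and 13.30 against 13.36 in the females. Another Cdk1 probe, much dimmer at log2 intensities of 7.74 to 8.11, had -0.22 in the males and 0.31 in the females. The remaining Cdk1 probe, also dim at 7.20 to 7.47, had 0.26 and -0.05, the signs of the probe used. Ccna2 had -0.10 and 0.42.

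The mitotic kinases act at the centrosome, kinetochore and spindle. Their 6 tested genes had a median log2 ratio of 0.14, and Aurka, Bub1b, Ttk and Melk were higher on both arrays. Melk, a kinase with high transcript levels in proliferating progenitor cells, had the highest mean, 0.36 ± 0.41, with 13.69 against 13.62 in the males and 14.13 against 13.48 in the females. Most of that mean came from the female array (0.65, against 0.07 in the males). Bub1b, a checkpoint protein that holds back the anaphase-promoting complex, had the lowest mean, 0.08 ± 0.08, with 12.49 against 12.36 and 12.43 against 12.41. Aurka, the centrosomal Aurora kinase, had 0.08 and 0.09. Ttk, the checkpoint kinase also called Mps1, had 0.31 and 0.03. Plk1, which acts at centrosomes and in cytokinesis, had 0.49 in the males and -0.09 in the females. Aurkb, which was not tested, had log2 intensities of 6.59 to 6.78, near background.

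Proteins of the centromere and of the passenger complex attach chromosomes to the spindle. Cenpe, a kinetochore motor, had the highest mean of the 4, 0.33 ± 0.18, with 15.14 against 14.94 in the males and 15.44 against 14.98 in the females, without overlap. Cenpf, a large kinetochore protein, had the lowest, 0.04 ± 0.55, with 8.07 against 8.43 and 8.73 against 8.30. Its groups overlapped, and its mean was -0.01 from the scanner's processed signals. Birc5 (survivin), a passenger protein, had ratios of 0.31 and 0.14, and Cenpa, the centromeric histone H3 variant, -0.03 and 0.12.

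Motors and microtubule-binding proteins build the spindle and the midzone. All 7 had a log2 ratio above 0 on the female array (median 0.48), while 3 of 7 did on the male array (median -0.11), against 51% of features on each array. With median centring the male median of these 7 was 0.22, beside 0.17 over all features, and the female median was 0.28, beside -0.09. Tpx2, which activates Aurora A on spindle microtubules, had the highest mean, 0.31 ± 0.17, with 13.80 against 13.61 in the males and 14.07 against 13.64 in the females. Nusap1, a microtubule-bundling protein, had the lowest, -0.01 ± 0.14, with 14.51 against 14.62 and 14.39 against 14.29, and was the only tested member with a mean below 0, although it had 0.07 from the processed signals. Prc1, which crosslinks midzone microtubules, had 0.11 and 0.48. Kif20a, a cytokinesis motor, had 0.10 and 0.27, and Kif23, the motor of centralspindlin, -0.17 and 0.60. The anaphase-promoting complex is represented by its activator Cdc20, with 15.54 against 15.37 and 15.72 against 15.37 (mean log2 ratio 0.26 ± 0.13), and its ubiquitin-conjugating enzyme Ube2c, with 14.81 against 14.76 and 14.90 against 14.66 (mean 0.14 ± 0.14). Neither overlapped between groups.

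**Figure D3:**
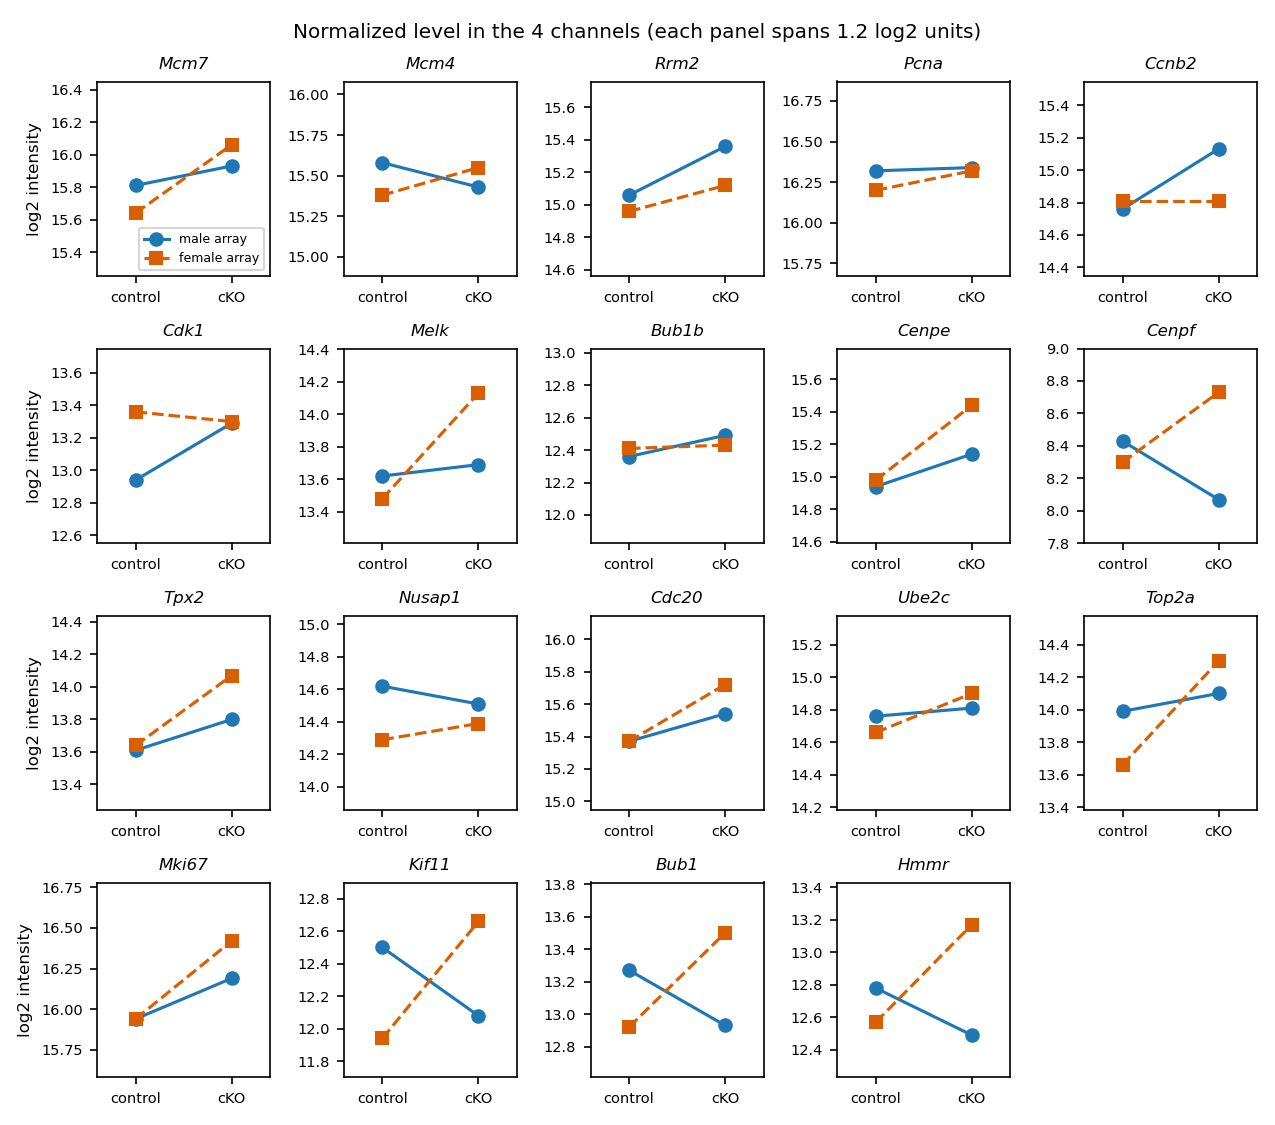
Normalized log2 intensity (y axis, each panel spanning the same range) in control and Rbpj-cKO channels (x axis) of the male array (circles, solid line) and the female array (squares, dashed line). Shown are the highest and lowest mean ratio of each role group and the members whose arrays differ most; Mki67 and Top2a are higher in Rbpj-cKO on both arrays, while Kif11, Bub1 and Hmmr cross.

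The largest disagreement between the arrays lay in Kif11, Bub1 and Hmmr. Kif11, the motor that pushes spindle poles apart, had log2 intensities of 12.08 in Rbpj-cKO and 12.50 in control RNA in the males, and of 12.66 and 11.94 in the females. Its log2 ratios were thus -0.42 and 0.72, and the groups overlapped. Bub1, a checkpoint kinase, had 12.93 against 13.27 in the males and 13.50 against 12.92 in the females. Hmmr, a microtubule-associated hyaluronan receptor, had 12.49 against 12.78 and 13.17 against 12.57. In each of the 3 the green channel was the brighter on both arrays. Bub1 is spotted 10 times per array: its spots ranged from -0.39 to -0.25 on the male array (SD 0.05, 10 spots) and from 0.40 to 0.72 on the female array (SD 0.13, 9 spots after an outlier was left out). Every Bub1 spot used thus had the sign of its array, and these spots share a hybridisation, so their spread is technical.

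In 12 of 35 members (34.3%) the green channel was brighter on both arrays, against 29.3% of features, and in 4 members (Cdc6, Ccnb2, Cdk1 and Plk1) the red channel was, against 29.3% of features. The green share was thus near that of all features. Over members, the male and female log2 ratios had a Pearson correlation of -0.61, and over all features -0.18. These are correlations across genes on the same pair of arrays, and genes are not independent replicates. These counts depended on how the dyes were balanced. Each array was also centred on its median in place of the intensity-dependent loess. Green was then brighter on both arrays in 5 members and red in 20 (57.1%), against 16.0% and 49.5% of features. The number of members higher in Rbpj-cKO on both arrays was 10 in place of 19, against 22.4% of features in place of 21.7%.

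**Figure D4:**
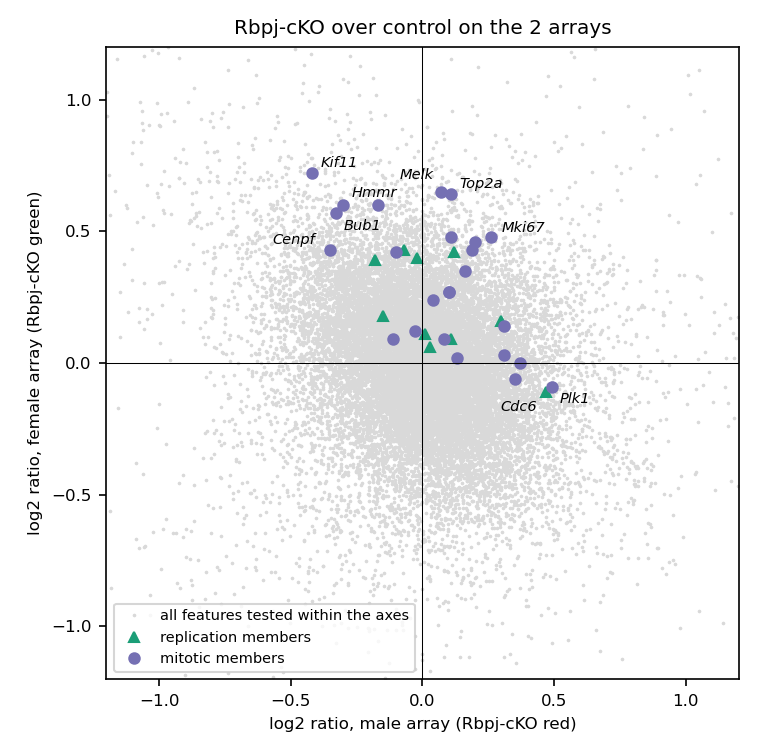
Log2 ratio of Rbpj-cKO over control on the male array (x axis) against the female array (y axis), for replication members (triangles), mitotic members (circles) and all features within the axes (grey points). Most members lie in the upper quadrants, Cdc6, Plk1, Cdk1 and, just below the line at 0, Ccnb2 at the lower right and 0 at the lower left, and Kif11, Bub1, Hmmr and Cenpf lie at the upper left.

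For 7 members more than 1 probe was above background, with 10 further probes in all. All 10 had a lower mean log2 ratio than the brightest probe of their gene, against 60.5% of 5235 such probes over all genes. Their median was 0.02, against 0.18 for the brightest probes of these 7 genes, and 5 of the 10 lay above 0. Tpx2 had 0.31 and 0.19 on its probes, Cdc6 had 0.18 and 0.16 with opposite signs by array, Cdk1 had 0.15, 0.05 and 0.11, and Ube2c had 0.14 and -0.03. Ccnb1 and Birc5 differed most, and the first 30 of each probe's 60 bases are shown to identify them, brightest probe first. The Ccnb1 probes lie on mm9 at chr13:101548722-101548781, chr13:101551224-101551283 and chr13:101553449-101553508, with mean log2 ratios of 0.18, -0.02 and -0.09. The Birc5 probes lie at chr11:117716978-117717037, chr11:117711112-117711171 and chr11:117714057-117714116, with 0.22, -0.01 and -0.02. The exon or intron under each probe was not analysed here.
Ccnb1, first probe: gccacctggaaaagaatcctgtctcatttg
Ccnb1, second probe: tatgaggagatgtaccctccagaaataggt
Ccnb1, last probe: tgagtgatgtagacgcagatgatggagctg
Birc5, first probe: tgctgataattttgtcctgatgagttttcc
Birc5, second probe: tgatttggcccagtgttttttctgctttaa
Birc5, last probe: tcttgaaactggacagacagagagccaaga

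In Ccnb1, Birc5 and Ube2c the sign of the mean thus depended on the probe, while in Cdc6, Cdk1, Mki67 and Tpx2 every probe had a mean above 0. The 29 members with 1 probe carry no such check, and those tested had a median of 0.17.

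A wider list of 115 other cell cycle genes was measured beside the members. Of the 113 tested, 0 passed the limma test in either direction, and 2 had an unadjusted p under 0.05 (3.37% of features did), E2f2 and Cdkn2b. Their median log2 ratio was 0.10 (0.08 male, 0.12 female), and 45 (39.8%) were higher and 8 (7.08%) lower on both arrays, against 21.7% and 19.7% of features. The highest medians of the mean were those of 3 mitotic subgroups: spindle and cytokinesis 0.21 (from -0.10 for Ckap2 to 0.39 for Cit, a midbody kinase), passenger complex, condensin and cohesin 0.18 (Smc2 -0.07, Incenp 0.34), and mitotic entry and exit 0.15 (Pbk -0.01, Ccnf 0.40). In that order their medians were 0.00, 0.16 and 0.00 on the male array and 0.37, 0.25 and 0.29 on the female array. Replication fork genes had 0.13 and 0.07, and G1 cyclins and their kinases 0.19 and -0.14, so the ranking did not hold on the male array. From the scanner's processed signals the replication fork median (0.14) lay above that of mitotic entry and exit (0.13). Kinetochore and checkpoint genes had a median of 0.08 (Cenpw -0.16, Knl1 0.32). Replication fork genes had 0.12 (Pola1 -0.13, Chaf1b 0.35), and origin licensing and firing genes 0.07 (Gins2 -0.13, Ticrr 0.35).

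Regulators of the G1 phase act before replication starts. G1 cyclins and their kinases had a median log2 ratio of 0.09, with Ccnd1, the cyclin D1 gene, lowest at -0.29 and Cdk6 highest at 0.18. Cyclin-dependent kinase inhibitors had a median of -0.13, with 3 of 7 lower on both arrays. Among them Cdkn2b, which inhibits Cdk4 and Cdk6, had the lowest mean of the list, -0.47 ± 0.07, and Cdkn1a the highest of its subgroup, 0.06. The E2F, pocket protein and MuvB genes encode regulators of the E2F-type and CHR motifs above. They had a median of 0.01, from -0.18 for Lin54 to 0.49 for E2f2, the highest of the list. This last median was -0.01 with the scanner's processed signals, so it had no stable sign.

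Marker genes of other cell types were measured in the same RNA, and none of them passed the test. Of 15 urothelial genes 12 were higher in Rbpj-cKO on both arrays, against 21.7% of features. Their median log2 ratio was 0.22 (0.09 and 0.28, the latter -0.17 with median centring), beside the members' 0.18. The count depended on the processing: with median centring 80.0% of the urothelial genes had opposite signs on the arrays, against 65.5% of features. The summed urothelial intensity was 1330000 in Rbpj-cKO and 1120000 in control RNA in the males, and 1370000 and 1140000 in the females. Of 8 smooth muscle genes 7 were lower on both arrays, against 19.7% of features, and with median centring 37.5% had opposite signs. The smooth muscle median was -0.32, with sums of 644000 against 802000 and 641000 against 728000. The share of these tissues in the cell cycle values was not tested. Red cell genes had the array pattern of Kif11, with a median of -0.40 in the males and 0.64 in the females. Of 6 red cell genes 5 were brighter in green on both arrays, against 29.3% of features. With median centring 3 of 6 were, against 16.0% of features. The red cell sums were 182000 against 250000 in the males and 254000 against 150000 in the females. The part of red cell genes in the array difference was not tested. Mesothelial genes had medians of 0.50 and -0.21. Median log2 ratios were 0.18 for 7 fibroblast genes, -0.05 for 7 endothelial, -0.04 for 9 macrophage and leukocyte and -0.13 for 8 nerve and glia genes. The kidney genes, 5 of 8 tested, had a median of 0.45 (-0.05 without the filter on dim probes), with Six2 highest (1.48 and 0.86) and Cited1 lowest (-0.70 and -0.49), and sums of 10700 against 13200 in the males and 13300 against 14300 in the females, while the tubule genes Umod and Slc34a1 were not tested; their part was not tested either.

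**Figure D5:**
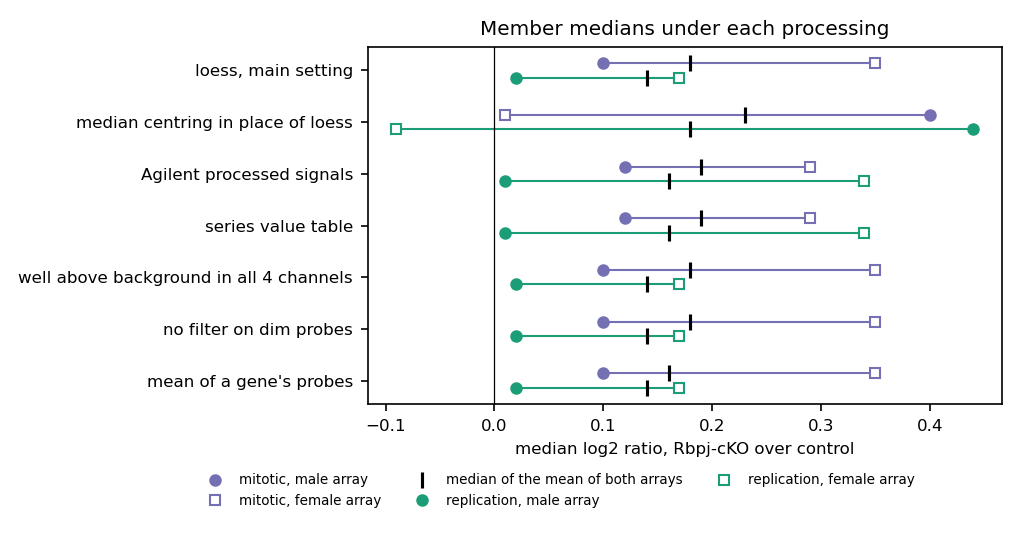
Median log2 ratio of Rbpj-cKO over control (x axis) for mitotic (purple) and replication (green) members under each processing, with filled circles for the male array, open squares for the female array and bars for the median of the mean. Medians of the mean stay between 0.14 and 0.23, while median centring gives both classes their higher median on the male array, where loess gives it on the female array.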

How the data were processed

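The members and gene lists were chosen with earlier results of these data known. The deposited scanner files, made with Agilent Feature Extraction 10.7.3.1 per the submitters' processing notes, hold mean and background signals, an unnormalized intensity per spot. Per the file headers, their processed signals are background-subtracted and dye-normalized, and the log ratio and its error are log10 of red over green. A deposited value table gives each probe a signed score, and the steps behind it are not given in the sources; it correlated with the processed log2 ratios at 0.988 and 0.990.

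Mean signals were corrected with normexp (offset 50), normalized by loess within arrays and turned to log2 Rbpj-cKO over control (limma 3.58.1, R 4.3.3). Outlier and control spots were left out, and channel levels were made comparable with Aquantile. Ratios were tested, two-sided, with lmFit and eBayes (1 residual and 10.3 prior degrees of freedom) and Benjamini-Hochberg adjustment over 20989 features, with a threshold of 0.05. The step was tested on simulated data. The number of arrays limits the precision.

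All members are named. Levels in the 4 channels are given for Mki67, Top2a, the highest and lowest mean of each role group and the 3 members whose arrays differ most. The wider list gives each subgroup's highest and lowest gene.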

Additional observations from a re-analysis of the deposited data

Results flagged for a closer look

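In 16 of the 35 members (45.7%) the arrays had opposite signs, against 58.6% of all features tested. There is 1 array per sex and dye orientation, so sex, dye and array cannot be told apart, and the difference was not tested. As female minus male log2 ratio of Rbpj-cKO over control, the difference was positive in 12 members. It was 1.14 in Kif11, 0.91 in Bub1, 0.90 in Hmmr, 0.78 in Cenpf and 0.77 in Kif23. Cenpf was the dimmest tested member, at log2 intensities of 8.07 to 8.73. It was 0.56 in Tyms, 0.53 in Ccna2, 0.50 in Mcm5, 0.42 in Mcm6 and 0.33 in Mcm4. In Nusap1 it was 0.20 and in Cenpa 0.15. It was negative in Ccnb2 (-0.37), Cdk1 (-0.42), Cdc6 (-0.58) and Plk1 (-0.58). A further probe of Cdc6 and a dim further probe of Cdk1 had the opposite signs by array. The remaining Cdk1 probe, also dim, had the signs of the probe used. The prevailing direction depended on the processing. With median centring, among members with opposite signs, the difference was positive in 5 and negative in 20, against 16.0% and 49.5% of features.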

How the results depend on the processing

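None of the members and none of the wider cell cycle genes passed the limma test under any of the 7 alternatives, and the lowest member adjusted p was 1 in each. Over all features the calls numbered 27. They numbered 0 after median centring, from the scanner's processed signals, from the deposited value table and without the filter on dim probes. They numbered 26 where a signal in all 4 channels was required, 10 where the probes of a gene were averaged, and 41 where the prior variance followed intensity. Unadjusted p was under 0.05 in 1 member without the filter on dim probes and in 0 members otherwise. Members higher on both arrays were 10 with median centring, against 22.4% of features, and 19 or 20 otherwise, against 21.5% to 23.8% of features. With median centring the median over all features was 0.17 in the males and -0.09 in the females, so the ratios are not centred over the features tested. Without either array in turn, the mitotic median ranged from 0.10 to 0.35, the replication median from 0.02 to 0.17 and their difference from 0.08 to 0.18. Pcna (-0.02) and Cenpf (-0.01) changed sign with the processed signals and with the value table, and Nusap1 did with both (0.07) and with median centring (0.06). The cause was not tested. A fit on 1 array has no residual degrees of freedom and was not tested. Each array gives 1 ratio, in which Rbpj-cKO and control of the same replicate are already paired. The limma test on these ratios was therefore paired, and no separate paired analysis was made.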
